A study of Mus musculus with 21 samples.

Results

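Paneth cells sit at the base of the small intestinal crypts, where they secrete antimicrobial peptides and lysozyme from large granules that are rich in zinc. In mammalian cells a rise in free zinc is sensed by the transcription factor MTF1, which switches on the metallothioneins (small proteins that bind zinc) and the zinc exporter Slc30a1. Metals and electrophiles also act on Nrf2, a transcription factor that drives genes of glutathione synthesis and detoxification, and heavy demand on protein folding draws on cytosolic and endoplasmic reticulum (ER) chaperones. The comparison described here is that of Paneth cells from antibiotics-treated mice on zinc water with those from antibiotics-treated mice on Milli-Q (purified) water.

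The members were the 8 antibiotics libraries of the 21 bulk RNA-seq libraries in the series, 4 on each water, taken by their labels. All 8 came from mice kept specific pathogen free (SPF), which the study's methods give as C57BL/6J, and all 8 mice received antibiotics of broad spectrum over the final 3 weeks of a period of 7 weeks on their water. The zinc group drank water with ZnSO4, at 200 mM as the labels state it, and the control group drank Milli-Q water with no added zinc. Paneth cells of the small intestine were isolated by flow sorting, and the study's methods describe samples from individual mice, while the age of the mice and the names of the antibiotics are not stated there or in the labels. The other 13 libraries (3 SPF libraries on each water, 3 germ-free on Milli-Q water and 4 germ-free on zinc water) entered the same fit and served to compare the zinc effect between microbiome contexts.

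Between 12089481 and 16896714 counts were assigned per library. Defining Paneth cell genes were abundant in all 8 libraries, with Lyz1 (lysozyme) between 61074 and 147740 CPM (counts scaled to the effective library size) and Mmp7, the protease that activates mouse defensins, between 1578 and 3075 CPM. The Milli-Q libraries held counts in 17468 to 18072 genes and the zinc libraries in 15870 to 16558, so the groups did not overlap. Counts on 18S ribosomal RNA were those of the annotated entry Rn18s-rs5. They took 1.63 to 2.03% of the total on Milli-Q water and 1.96 to 6.09% on zinc water. The highest shares were in zinc replicates 3 (3.76%) and 4 (6.09%). Replicates differed by more than sampling noise (chi-square per gene of at least 13.1 over 12 pairs). The first principal component of the 8 libraries held 46.6% of the variance and placed the Milli-Q libraries between -48.0 and -15.8 and the zinc libraries between 22.9 and 38.4.

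The zinc-binding and zinc-moving genes came first. The promoters of the metallothioneins Mt1 and Mt2 and of the zinc exporter Slc30a1 are shown because they carry the letters of the metal response element, the DNA motif that MTF1 binds. The sequences are those of RefSeq, 250 bases before to 50 after the gene start, found once each in GRCm39 at chr8:94905467-94905766 (Mt1), chr8:94898996-94899295 (Mt2) and chr1:191638643-191638942 (Slc30a1), all on the plus strand. Capitals mark each TGCACNC or TGCGCNC, read on either strand.
Mt1: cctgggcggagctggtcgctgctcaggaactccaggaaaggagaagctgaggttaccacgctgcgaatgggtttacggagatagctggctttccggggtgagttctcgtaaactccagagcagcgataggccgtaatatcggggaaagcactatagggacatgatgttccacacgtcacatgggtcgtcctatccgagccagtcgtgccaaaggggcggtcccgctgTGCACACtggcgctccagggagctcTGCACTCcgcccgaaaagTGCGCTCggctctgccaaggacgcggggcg
Mt2: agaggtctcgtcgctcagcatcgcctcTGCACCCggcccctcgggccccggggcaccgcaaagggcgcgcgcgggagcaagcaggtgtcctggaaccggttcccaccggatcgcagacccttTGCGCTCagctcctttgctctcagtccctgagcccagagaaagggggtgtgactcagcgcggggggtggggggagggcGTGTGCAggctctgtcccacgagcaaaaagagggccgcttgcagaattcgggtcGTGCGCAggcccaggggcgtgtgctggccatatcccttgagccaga
Slc30a1: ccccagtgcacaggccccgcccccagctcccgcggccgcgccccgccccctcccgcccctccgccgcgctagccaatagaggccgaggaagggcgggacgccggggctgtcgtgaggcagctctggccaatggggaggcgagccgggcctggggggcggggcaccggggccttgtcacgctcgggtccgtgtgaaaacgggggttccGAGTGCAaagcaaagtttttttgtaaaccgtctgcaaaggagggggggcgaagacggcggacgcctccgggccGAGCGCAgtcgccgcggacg
These windows held 3, 4 and 2 matches. Matches are common, since 33.8% of the promoters of the 11972 tested protein-coding genes with an annotated start held at least 1, as did 36.5% of those called higher on zinc and 34.0% of those called lower.

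Zinc water raised both main metallothioneins and the plasma membrane exporter and lowered an importer. Mt2 stood at 21.3, 15.7, 8.55 and 14.1 CPM in the Milli-Q libraries and 719.7, 858, 1039 and 369.6 CPM in the zinc libraries. The lowest zinc library was above the highest Milli-Q library, with a log2 fold change of 5.65 ± 0.42 (SE, n = 4 each, edgeR adjusted p 2.33e-08). Here and below, p-values come from edgeR's quasi-likelihood test with Benjamini-Hochberg adjustment over all genes. Mt1 stood at 49.8, 50.2, 31.9 and 45.8 CPM in the Milli-Q libraries and 718, 748, 1002 and 379.6 CPM in the zinc libraries. The groups again did not overlap (log2 fold change 4.0 ± 0.32, SE, edgeR adjusted p 3.43e-08). Slc30a1, which exports zinc across the plasma membrane, stood at 1.85, 2.56, 2.59 and 3.65 CPM in the Milli-Q libraries and 8.49, 13, 8.49 and 4.7 CPM in the zinc libraries. It rose by 1.70 ± 0.27 log2 units (SE, edgeR adjusted p 0.00114). Slc39a4, the intestinal zinc importer, stood at 27.9, 19.8, 23.4 and 26.4 CPM in the Milli-Q libraries and 13.2, 13, 10.7 and 11.9 CPM in the zinc libraries. It was lower in every zinc library than in every Milli-Q library (log2 fold change -1.0 ± 0.21, SE, edgeR adjusted p 0.00292). All 4 calls held when any single library was left out.

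The rest of the zinc transporter families moved less. Of 4 metallothioneins tested 3 rose and 0 fell, the third being Mt4, chosen after its values were seen, which has a mean below 2 CPM in both groups (0.048 on Milli-Q and 1.21 on zinc water). Of 8 Slc30a exporters and vesicle loaders tested 3 rose, of which Slc30a5 (0.48 ± 0.11, SE) and Slc30a2 (0.41 ± 0.15, SE), transporters that load zinc into the secretory pathway and vesicles, follow Slc30a1. Of 13 Slc39a importers 2 rose and 3 fell. Slc39a8 and Slc39a11 rose by 0.51 and 0.51 log2 units, and Slc39a5 and Slc39a13 differed by -0.45 and -0.75. Slc30a2, Slc39a5, Slc39a8 and Slc39a11 each lost their call in fits that leave out a library (adjusted p of up to 0.188, 0.0814, 0.143 and 0.167 in edgeR). With a correction for GC content, described below, 4 metallothioneins and 3 Slc30a genes rose and 0 fell, while 1 Slc39a gene rose and 1 fell, and Slc39a5, Slc39a8 and Slc39a13 lost their calls.

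**Figure D1:**
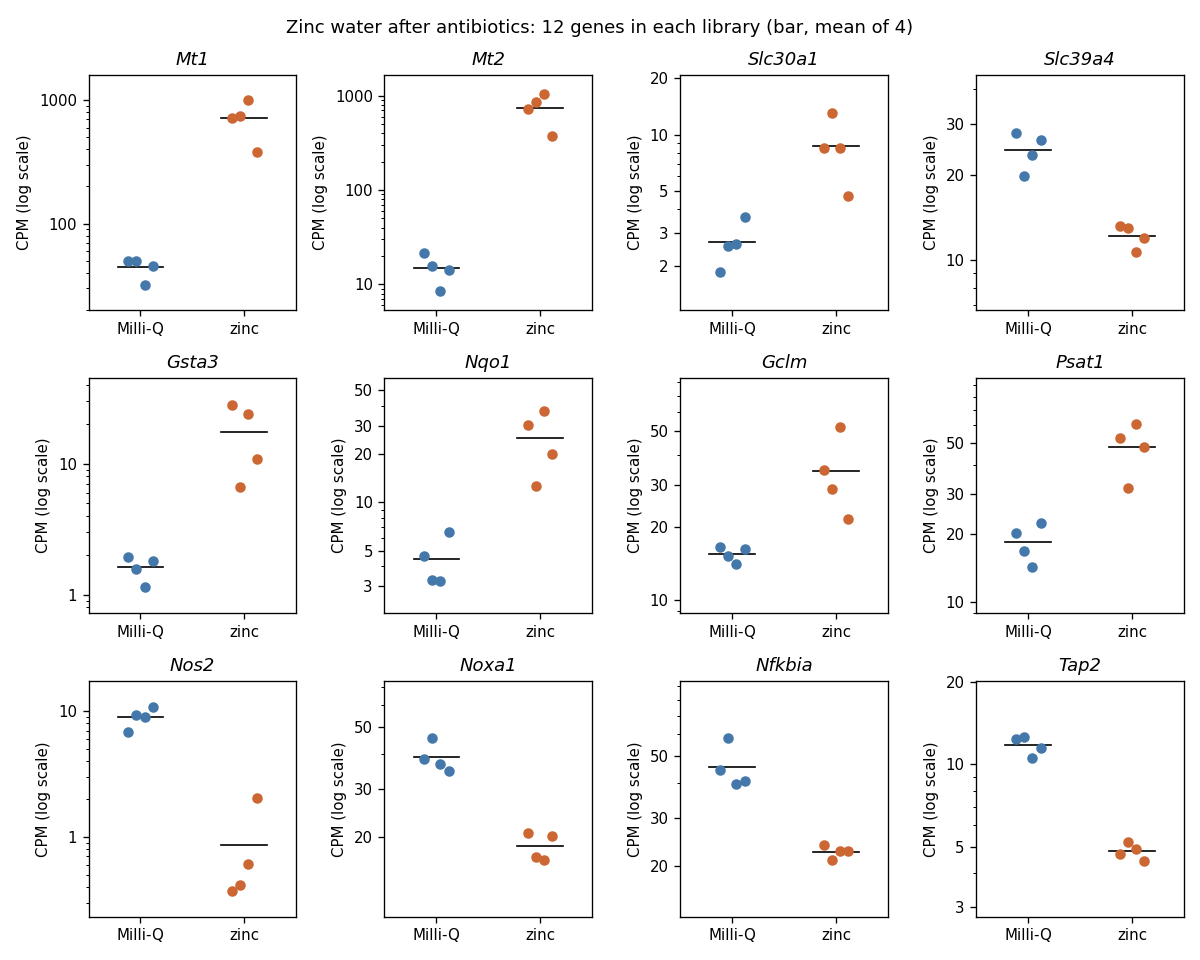
Level in CPM of 12 genes in each of the 8 libraries on a log scale, with Milli-Q libraries in blue, zinc libraries in orange and bars at the mean of 4. In all 12 genes the 4 zinc libraries and the 4 Milli-Q libraries did not overlap, and Mt1 and Mt2 differed most.

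Across all 13070 genes with enough counts, 2838 (21.7%) passed the edgeR threshold of 0.05 on zinc against Milli-Q water, of which 1335 rose (10.2%) and 1503 fell (11.5%). Falls were the larger changes. At least 2-fold changes were called for 72 genes that rose and 527 that fell, and the median of the called genes was 0.54 log2 units for rises and -0.77 for falls. The libraries of the groups did not overlap in 3598 of all 13070 genes (27.5%), and in 1124 of the rises and 1258 of the falls. Leaving out each library in turn gave between 540 and 1224 rises and between 777 and 1486 falls, with 448 rises and 670 falls called in all 8 fits. The called total of 2838 was 1317 without Milli-Q replicate 2, 1761 without Milli-Q replicate 3, 1740 without zinc replicate 1 and 1736 without zinc replicate 4. With library totals in place of TMM scaling the median of all genes moved from 0.0072 to -0.15 log2 units, and 150 genes rose and 1295 fell. A change of scaling shifts all genes of a library alike. List medians relative to the median of all genes could therefore hardly change, and their kept sign tests nothing.

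Both directions moved with the GC content of the transcript. The median log2 fold change of genes ran from 0.26 in the quintile with the lowest GC content (31.0 to 44.0%) through 0.15, 0.026 and -0.12 to -0.27 in the quintile with the highest (54.8 to 75.5%). Of genes in the lowest quintile 22.5% rose and 3.83% fell, and of those in the highest quintile 1.42% rose and 25.2% fell. All 4 zinc libraries lay above and all 4 Milli-Q libraries below the mean for the lowest quintile, and the reverse held for the highest quintile. Once log counts were corrected for GC content and length, 1433 genes rose and 934 fell, and the share that rose ran from 8.85 to 12.2% over the quintiles and the share that fell from 5.83 to 8.36%. Whether GC content or the genes themselves set this difference cannot be told apart here. GC content and the number of genes detected moved with the water without overlap of groups. The 18S share was higher in zinc replicates 1, 3 and 4, but zinc replicate 2 lay within the Milli-Q libraries (exact two-sided permutation test p = 0.0857, smallest possible p 0.0286). Their part in the results was not tested. With the 18S share of each library as a term in the fit, 203 genes rose and 275 fell, and without zinc replicates 3 and 4, which held the most 18S counts, 337 rose and 516 fell.

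**Figure D2:**
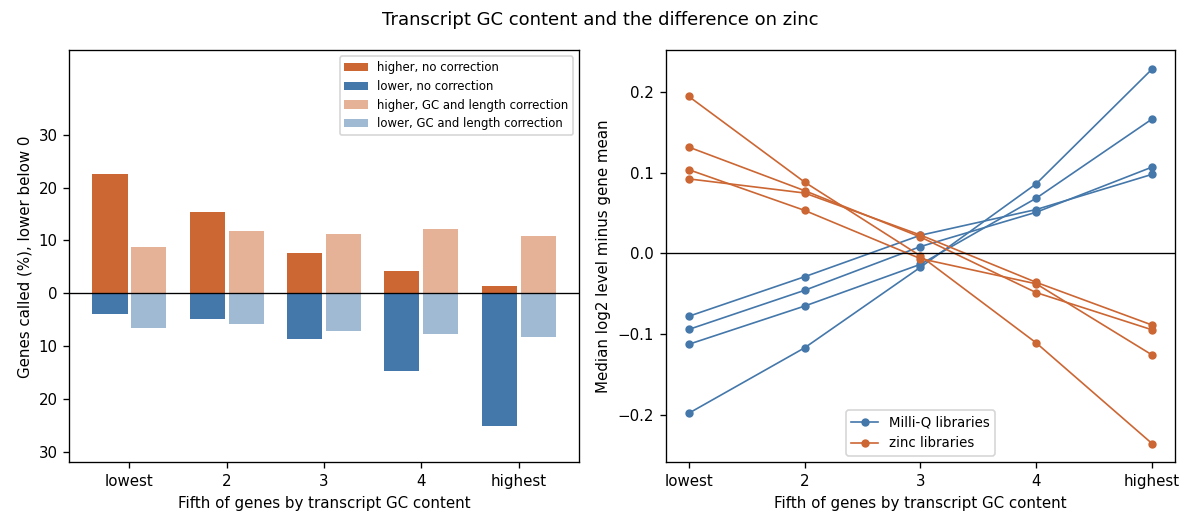
Left, the percentage of genes called higher (above 0) or lower (below 0) on zinc in each quintile of genes by transcript GC content, without and with a correction for GC content and length. Right, the median log2 level of each quintile in each library relative to the gene means, in which the 4 zinc libraries ran from above to below 0 and the 4 Milli-Q libraries from below to above 0.

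Among the named genes of at least 5 CPM, detoxification genes held the largest rises after Mt1 and Mt2. Of 46 Nrf2 antioxidant targets tested, 23 rose (50%, against 10.2% of all genes) and 1 fell. Their median was 0.45, against 0.0072 for all genes, and their median GC content was 49.3%, as it was for all genes. Gsta3, a glutathione transferase, stood at 1.95, 1.57, 1.15 and 1.8 CPM in the Milli-Q libraries and 28.1, 6.59, 23.7 and 10.8 CPM in the zinc libraries. Its libraries did not overlap (log2 fold change 3.41 ± 0.49, SE, edgeR adjusted p 8.14e-04). Nqo1, the quinone reductase, stood at 4.66, 3.28, 3.26 and 6.57 CPM in the Milli-Q libraries and 30.3, 12.7, 37.1 and 19.9 CPM in the zinc libraries. Its log2 fold change was 2.48 ± 0.43 (SE, edgeR adjusted p 0.00131). Gclm, a subunit of the enzyme that limits glutathione synthesis, stood at 16.5, 15.2, 14.1 and 16.3 CPM in the Milli-Q libraries and 34.6, 28.7, 51.8 and 21.6 CPM in the zinc libraries, a rise of 1.14 ± 0.19 log2 units (SE, edgeR adjusted p 0.0013). Prdx1, a peroxiredoxin, stood at 237 ± 15.6 CPM on Milli-Q water and 398 ± 43.7 CPM on zinc water (SD, n = 4 each), a rise of 0.75 ± 0.12 log2 units (SE).

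Further Nrf2 targets that rose were Gsta4 and Gstm3, glutathione transferases, at 2.11 and 1.87 log2 units. The called fall was Ephx1, epoxide hydrolase (-0.50), which lost its call in 3 of the fits that leave out a library and under the GC correction. Of 61 tested genes of nuclear receptor and xenobiotic metabolism 13 rose (21.3%) and 5 fell (8.20%), against 10.2% and 11.5% of all genes. Its rises included Aldh1a1, an aldehyde dehydrogenase that makes retinoic acid (3.32), the carboxylesterase Ces1f (2.92) and Ugt2b34 and Ugt2b35, which add glucuronic acid (0.92 and 1.14), against Cyp4f13, Adh1 and Nr1i2 (the pregnane X receptor) at -0.90, -0.72 and -0.54. Akr1c19, a reductase outside these lists, rose by 2.96. After the GC correction the Nrf2 list held 27 rises and 0 falls and the xenobiotic list 11 rises and 5 falls. With the 18S term they held 10 and 3 rises and 0 falls, and with library totals only 10 and 8 rises and 1 and 5 falls. The lowest count in the fits without a library was 16 rises, without Milli-Q replicate 3, and that of the xenobiotic list was 7, without Milli-Q replicate 2.

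The promoters of Gsta3 and Gclm are shown since these genes were called and their windows hold the letters TGACNNNGC, the core of the antioxidant response element that Nrf2 binds. They lie at chr1:21310559-21310858 and chr3:122038956-122039255 in GRCm39 on the plus strand, and are RefSeq sequences with the match, read on either strand, in capitals.
Gsta3: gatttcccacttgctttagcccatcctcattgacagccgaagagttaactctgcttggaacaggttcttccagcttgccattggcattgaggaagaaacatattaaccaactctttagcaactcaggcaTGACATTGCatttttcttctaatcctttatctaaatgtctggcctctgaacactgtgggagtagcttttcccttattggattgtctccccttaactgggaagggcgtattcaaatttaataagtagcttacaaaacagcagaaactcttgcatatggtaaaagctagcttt
Gclm: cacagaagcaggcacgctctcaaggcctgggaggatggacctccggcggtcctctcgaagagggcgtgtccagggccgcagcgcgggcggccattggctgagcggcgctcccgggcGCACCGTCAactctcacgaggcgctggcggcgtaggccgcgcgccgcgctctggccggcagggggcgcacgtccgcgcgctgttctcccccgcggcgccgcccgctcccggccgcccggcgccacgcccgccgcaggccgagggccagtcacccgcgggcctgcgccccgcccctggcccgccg
This motif matched in 13.7% of the promoters of the 11972 protein-coding genes, in 16.0% of genes called higher and in 12.8% of genes called lower. No match was found in the window of Nqo1.

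Genes of sterol synthesis rose more often than they fell, as did a smaller share of integrated stress response genes. Psat1, a step of serine synthesis, stood at 20.2, 16.8, 14.3 and 22.3 CPM in the Milli-Q libraries and 52.6, 31.8, 60.3 and 48 CPM in the zinc libraries (log2 fold change 1.39 ± 0.23, SE, edgeR adjusted p 0.00128). Asns, asparagine synthetase, and Mthfd2, a mitochondrial folate enzyme, rose by 0.70 and 0.58 log2 units. Within the list of integrated stress response genes, to which these 3 belong, 6 of 33 rose and 2 fell (11 and 1 after the GC correction), with a median of 0.11. Of 33 genes of cholesterol synthesis 9 rose (27.3%, against 10.2% of all genes) and 1 fell, with a median of 0.35. Idi1, Msmo1 and Nsdhl, steps of the pathway, rose by 1.39, 1.03 and 0.78. After the GC correction 15 rose and 1 fell, with the 18S term 1 rose and 0 fell, and without Milli-Q replicate 2 the rises were 4. With library totals only 1 rose and 1 fell.

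Protein folding, secretory and protein turnover genes rose as groups under TMM scaling. Of 47 cytosolic chaperones tested, 26 rose and 2 fell, a share of 55.3% against 10.2% of all genes, with a median of 0.50. Stip1, the Hsp70 and Hsp90 organising co-chaperone, stood at 81.3, 42.4, 58.2 and 61.5 CPM in the Milli-Q libraries and 102, 113, 135 and 87 CPM in the zinc libraries (log2 fold change 0.84 ± 0.16, SE, edgeR adjusted p 0.00191). Cacybp and Hspa4 rose by 0.96 ± 0.16 and 0.60 ± 0.11 log2 units (SE), and the transcription factor of the heat shock response, Hsf1, and the chaperone Bag6 fell by 0.54 and 0.48 log2 units, 2 calls that were lost under the GC correction (adjusted p 0.237 and 0.83 in edgeR). Of 39 ER chaperones and disulfide enzymes 17 rose (43.6%) and 0 fell. Among the rises were Sdf2l1 (0.82 ± 0.15, SE), Erp44 (0.57 ± 0.12, SE) and Pdia3 (0.54 ± 0.13, SE). Sdf2l1, a stress-induced ER chaperone component, stood at 59.8, 40.9, 57.5 and 44.8 CPM in the Milli-Q libraries and 112, 73.7, 98.7 and 73.3 CPM in the zinc libraries, and the libraries did not overlap.

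Of 38 genes of the ER translocon 19 rose (50%) and 2 fell, against 10.2% higher and 11.5% lower among all genes. Of 60 genes of COPII, COPI and Golgi transport 24 rose (40%) and 1 fell. The list of aminoacyl-tRNA synthetases, which charge tRNAs with amino acids, gave 14 rises (56%) and 0 falls of 25 tested (median 0.42). It was led by Eef1e1, an associated factor that is not itself a synthetase, at 0.90. The synthetases Nars1 and Gars1 rose by 0.60 and 0.56. Of 50 proteasome genes 27 rose (54%) and 2 fell, with Psmd1, Psma3 and Psmd7, subunits of the constitutive particle, at 0.84, 0.69 and 0.53. The 2 falls were Psmb8 (-1.06 ± 0.32, SE, edgeR adjusted p 0.0219) and Psmb9 (-0.75 ± 0.26, SE, edgeR adjusted p 0.0418), catalytic subunits of the immunoproteasome. Under the GC correction Psmb9 lost its call (edgeR adjusted p 0.125). Cytosolic ribosomal proteins did not rise above the share of all genes. They gave 6 rises (7.23%, against 10.2% of all genes) and 1 fall of 83 tested, with a median of 0.21. Relative to the gene means, only zinc replicate 4 (0.43) lay above Milli-Q replicate 4 (0.10).

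After the GC correction the count of rises was 24 for cytosolic chaperones, 15 for ER chaperones, 16 for the translocon, 13 for tRNA synthetases, 25 for the proteasome, 26 for COPII, COPI and Golgi transport and 7 for cytosolic ribosomal proteins. With the 18S term the counts were 14, 2, 2, 7, 3, 1 and 1, and with library totals only 7, 1, 2, 2, 3, 1 and 0. Without Milli-Q replicate 2 the rises were 18 for cytosolic chaperones, 4 for ER chaperones, 6 for the translocon, 12 for the proteasome and 12 for COPII, COPI and Golgi transport, and without Milli-Q replicate 3 they were 10 for tRNA synthetases.

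**Figure D3:**
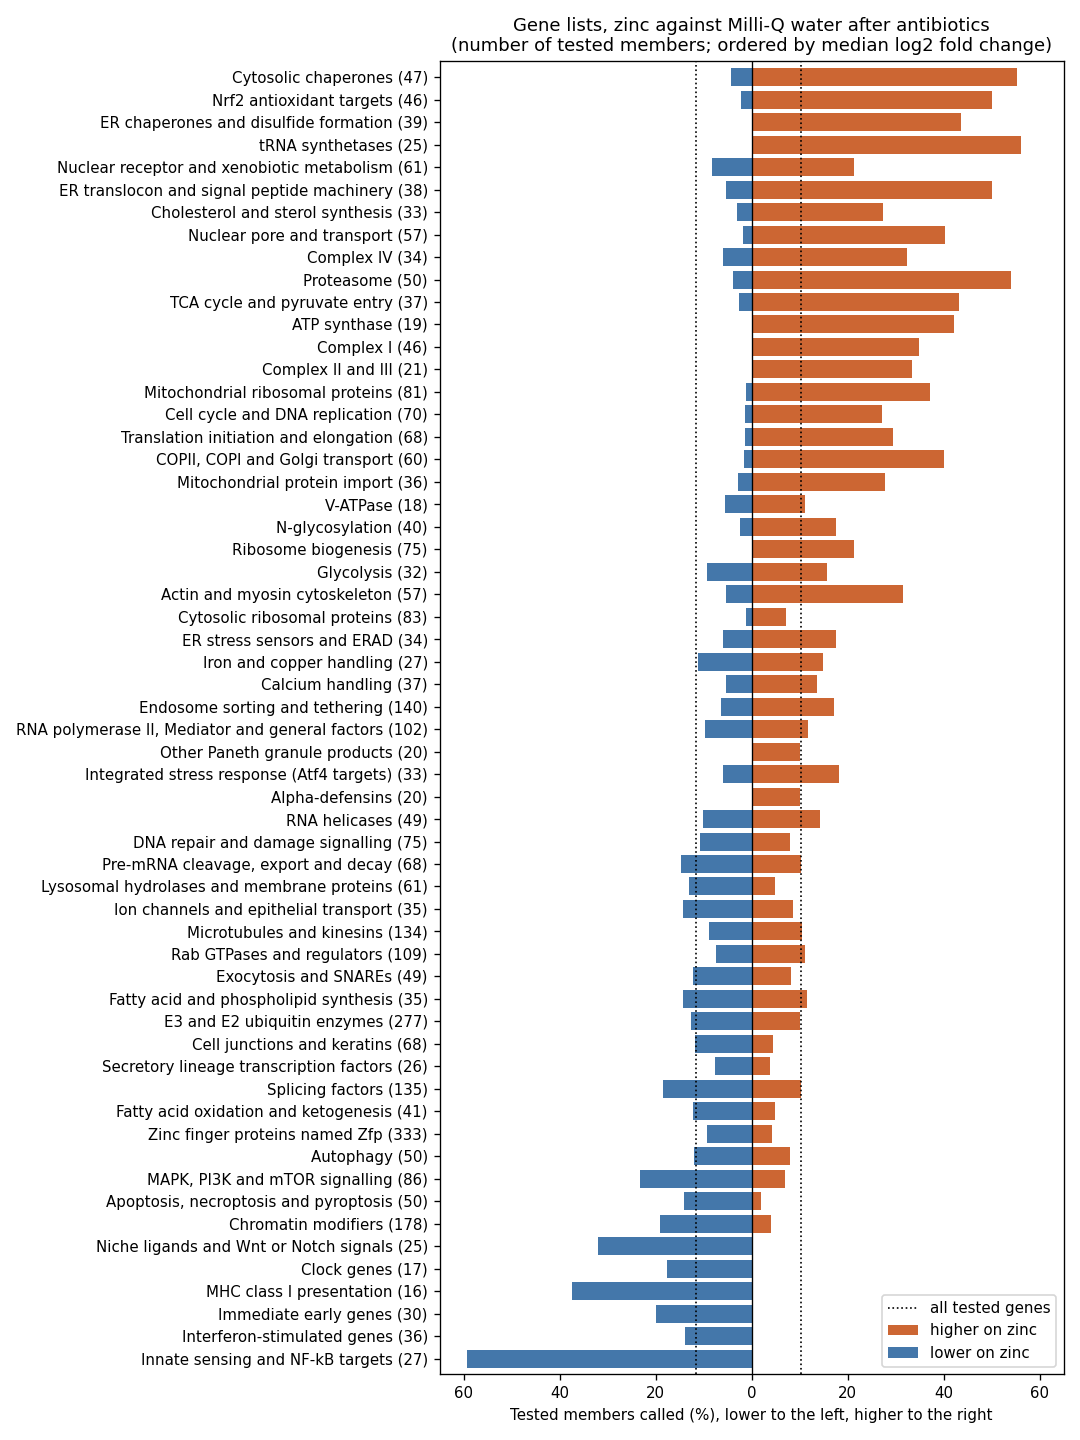
Share of tested members called higher (orange, to the right) or lower (blue, to the left) on zinc water for gene lists with at least 15 tested members, without the marker lists of other cell types. The lists are ordered by the median log2 fold change, with dotted lines at the share of all tested genes (10.2% higher, 11.5% lower). Cytosolic chaperones, Nrf2 targets, ER chaperones and tRNA synthetases stood at the top and the list of NF-kB targets at the bottom.

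Genes of the respiratory chain, the tricarboxylic acid cycle and the mitochondrial ribosome rose far more often than they fell. Of 46 complex I genes 16 rose (34.8%) and 0 fell, and of 19 ATP synthase genes 8 rose (42.1%) and 0 fell. Of 37 genes of the tricarboxylic acid cycle 16 rose (43.2%) and 1 fell. Of 81 mitochondrial ribosomal proteins 30 rose (37.0%) and 1 fell. Among all genes 10.2% rose and 11.5% fell. The medians of these lists were 0.32, 0.33, 0.34 and 0.31. Of 34 complex IV genes 11 rose (32.4%) and 2 fell, and of 21 genes of complexes II and III 7 rose (33.3%) and 0 fell. Ndufb6 and Ndufv2 of complex I rose by 0.66 ± 0.13 and 0.66 ± 0.16 log2 units (SE), and cytochrome c (Cycs) by 0.82 ± 0.17 (SE). Fh1 and Mpc2, which carry fumarate and pyruvate forward, rose by 0.60 and 0.66. Idh1, a cytosolic isocitrate dehydrogenase held in the same list, rose by 0.75. Pdk2, a kinase that holds back pyruvate dehydrogenase, fell (-0.56 ± 0.13, SE, edgeR adjusted p 0.00527), as the 1 fall of its list, and lost its call under the GC correction (edgeR adjusted p 0.294). With the GC correction the rises of complex I, ATP synthase, the tricarboxylic acid cycle and the mitochondrial ribosome were 19, 9, 21 and 37. With the 18S term they were 2, 0, 1 and 1, and with library totals only 3, 1, 2 and 2. The lowest counts without a library were 5 (without Milli-Q replicate 3), 3 (without zinc replicate 4), 10 and 12 (both without Milli-Q replicate 2). Lipid lists did not lean this way, with 2 rises and 5 falls of 41 for fatty acid oxidation and ketogenesis (median -0.036) and 4 rises and 5 falls of 35 for fatty acid and phospholipid synthesis (median 0.018). With the GC correction these counts were 1 and 3, and 11 and 3.

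Genes encoded on mitochondrial DNA took 2.67, 1.84, 2.01 and 2.16% of counts in the Milli-Q libraries and 1.88, 3.68, 3.75 and 3.44% in the zinc libraries. The mean share was 2.17 ± 0.36% on Milli-Q and 3.19 ± 0.88% on zinc water (SD, n = 4 each), and zinc replicate 1 lay with the Milli-Q libraries. The difference did not pass (exact two-sided permutation test p = 0.114, adjusted over 2 shares 0.229, smallest possible p 0.0286). These shares cover all genes on mitochondrial DNA, while the gene list holds only the 13 that code for proteins. Of these 13 genes 7 were tested and 5 called higher, among them mt-Nd5 (0.88 ± 0.24, SE), mt-Nd1 (0.82 ± 0.24, SE) and mt-Nd2 (0.79 ± 0.24, SE). The other 6 held 0 or 1 count in each library. Of the 7, 2 were called after the GC correction. In the fits without Milli-Q replicate 2 none of the 7 was called.

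Cell cycle genes followed the same direction. Of 70 tested, 19 rose (27.1%, against 10.2% of all genes) and 1 fell, with a median of 0.29. The ribonucleotide reductase subunits Rrm2 and Rrm1, which make deoxyribonucleotides, rose by 0.87 ± 0.16 and 0.74 ± 0.14 log2 units (SE), and cyclin A2 (Ccna2) by 0.72 ± 0.14 (SE). Cdk6, a cyclin-dependent kinase, was the 1 fall (-0.51 ± 0.17, SE, edgeR adjusted p 0.0346). After the GC correction 22 rose and 1 fell, with the 18S term 8 rose and 0 fell, and without Milli-Q replicate 2 the rises were 12. With library totals only 5 rose and 0 fell.

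Genes of NF-kB signalling and innate sensing fell. Of 27 tested NF-kB and innate sensing genes 0 rose and 16 fell, a share of 59.3% against 11.5% of all genes, with a median of -0.72. Nfkbia, the inhibitor that NF-kB itself induces, stood at 44.6, 58.4, 39.9 and 40.8 CPM in the Milli-Q libraries and 24, 21.1, 22.8 and 22.7 CPM in the zinc libraries. The groups did not overlap, with a log2 fold change of -1.02 ± 0.14 (SE, edgeR adjusted p 5.00e-04). The NF-kB subunits Relb and Nfkb2 differed by -0.93 ± 0.18 and -0.72 ± 0.14 log2 units (SE, edgeR adjusted p 0.00231 and 0.00197). The count of falls was 13 to 15 in the fits without a library.

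Genes of the NADPH oxidase, which makes superoxide, and of nitric oxide synthesis gave 5 falls and 1 rise of 10 tested. The falls were 50% of those tested, against 11.5% of all genes. Nos2, the inducible nitric oxide synthase, stood at 6.81, 9.25, 8.93 and 10.8 CPM in the Milli-Q libraries and 0.372, 0.412, 0.606 and 2.02 CPM in the zinc libraries. All 4 zinc libraries were lower than all 4 Milli-Q libraries (log2 fold change -3.40 ± 0.49, SE, edgeR adjusted p 8.14e-04). Noxa1, the activator of the epithelial oxidase Nox1, stood at 38.6, 45.8, 36.8 and 34.8 CPM in the Milli-Q libraries and 20.8, 17, 16.6 and 20.3 CPM in the zinc libraries (log2 fold change -1.06 ± 0.19, SE, edgeR adjusted p 0.00163). Its partner subunits Noxo1 and Cyba (p22phox) differed by -0.88 ± 0.22 and -0.82 ± 0.18 log2 units (SE), and Nox1 itself, at 7.31, 5.44, 6.34 and 12.9 CPM in the Milli-Q libraries and 3.53, 3.34, 0.606 and 4.44 CPM in the zinc libraries, by -1.42 ± 0.49 (SE, edgeR adjusted p 0.0408). The Nox1 call was lost in 7 of the 8 fits that leave out a library. The 1 rise was Rac1, a GTPase with many roles (0.32 ± 0.11, SE).

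Among antigen presentation genes, falls of MHC class I genes stood above the share of all genes. Of 16 MHC class I genes 0 rose and 6 fell (37.5%), while of 7 tested class II genes 0 rose and 1 fell (14.3%) and of 36 interferon-stimulated genes 0 rose and 5 fell (13.9%), near the 11.5% of all genes. The list medians were -0.39, -1.61 and -0.49. Zinc replicate 4 stood with the Milli-Q libraries in both MHC lists. Relative to the gene means, its class II median of 1.36 log2 units lay within the Milli-Q range of 1.33 to 1.49 while zinc replicate 3 was at -4.71, and its class I median of 0.11 lay just above Milli-Q replicate 3. Tap2, which with Tap1 carries peptides into the ER, stood at 12.4, 12.6, 10.6 and 11.5 CPM in the Milli-Q libraries and 4.71, 5.2, 4.92 and 4.44 CPM in the zinc libraries (log2 fold change -1.28 ± 0.21, SE, edgeR adjusted p 0.00114). Tap1 and Tapbp, its partners in peptide loading, differed by -0.92 ± 0.25 and -0.57 ± 0.14 log2 units (SE). Ciita, the master regulator of MHC class II and the 1 class II call, stood at 8.91, 6.3, 13.9 and 8.76 CPM in the Milli-Q libraries and 2.23, 1.23, 0.27 and 5.75 CPM in the zinc libraries (-2.0 ± 0.55, SE, edgeR adjusted p 0.0138). The class II falls ranged from 0 (without Milli-Q replicate 3) to 7 in the fits without a library, while those of class I and of the interferon list were 3 and 1 without Milli-Q replicate 2. Irf1, an interferon response factor, stood at 68.6, 63, 74.3 and 64.4 CPM in the Milli-Q libraries and 35.9, 38.7, 30.5 and 35 CPM in the zinc libraries, with no overlap of groups (log2 fold change -0.95 ± 0.13, SE, edgeR adjusted p 7.89e-04). Of 50 genes of apoptosis, necroptosis and pyroptosis 1 rose and 7 fell (14%, near the share of all genes, with 4 rises and 7 falls after the GC correction), among them Casp4 (-1.25), Gsdmd (-1.19) and Naip5 (-0.97), which detect lipopolysaccharide, open the pore of pyroptosis and detect flagellin, respectively. After the GC correction the falls were 12 for the NF-kB list, 5 for the oxidase list, 3 for MHC class I, 1 for class II and 3 for the interferon list. They were 7, 3, 1, 0 and 1 under the 18S term and 14, 6, 6, 2 and 5 with library totals only. Immune cell marker genes summed to 12 to 22.1 CPM (of library totals, as for all marker sums) on Milli-Q and 6.90 to 12.3 CPM on zinc water, with 7 of the 30 at 0 in all 8 libraries, among them the macrophage genes Adgre1, C1qb and Csf1r, and their part in these falls was not tested. Fewer cells of a type and less RNA per cell cannot be told apart in bulk samples.

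**Figure D4:**
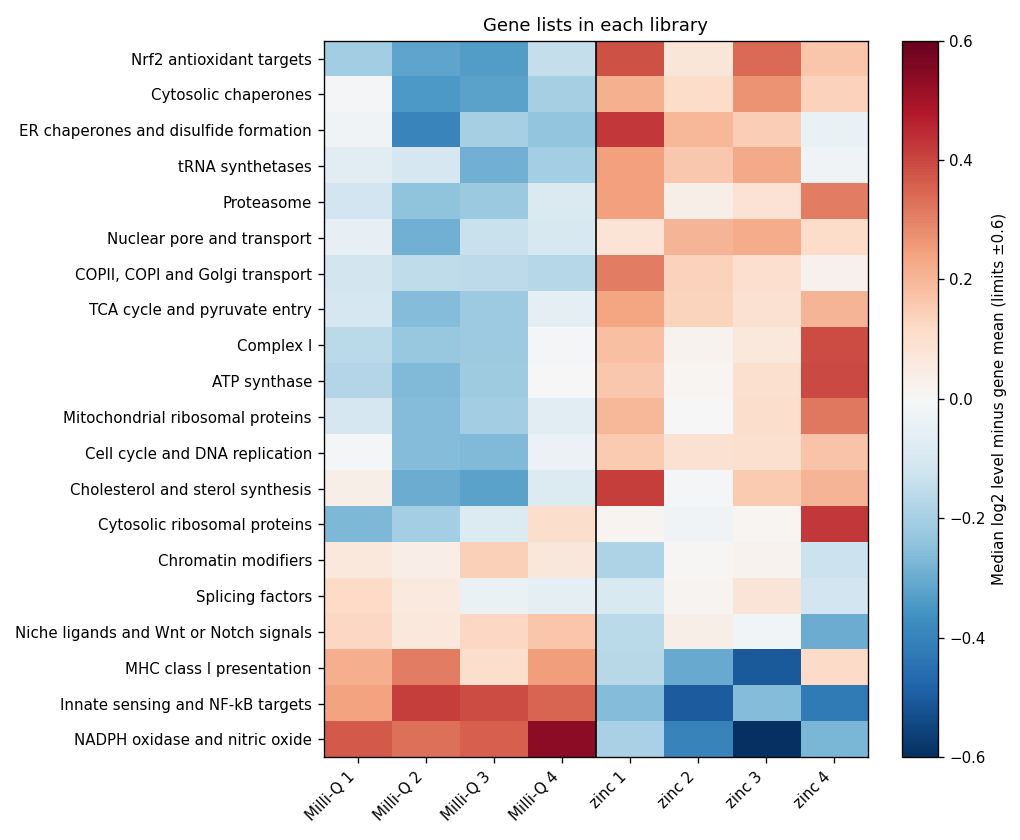
Median log2 level of each gene list in each library, relative to the mean of each gene over the 8 libraries, from blue (low) to red (high) with limits of 0.6 log2 units. The chaperone and antioxidant lists were below or near 0 in the Milli-Q libraries and above 0 in the zinc libraries, except ER chaperones in zinc replicate 4, and the NF-kB and oxidase lists showed the opposite order in all 8.

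Few secreted Paneth cell products passed the test. Alpha-defensin genes took 25.1, 32.8, 31.8 and 27.3% of counts on Milli-Q water and 28.7, 26.4, 29.9 and 25.3% on zinc water, which overlapped (exact two-sided permutation test p = 0.429, adjusted over 2 shares 0.429). Of 20 tested Defa genes 2 rose and 0 fell, a share of 10% against 10.2% of all genes, namely Defa34 (0.58 ± 0.19, SE) and Defa41 (0.64 ± 0.22, SE), each lost in most fits that leave out a library. Corrected for GC content, 2 Defa genes rose and 0 fell. Defa24, Lyz1, Itln1 (intelectin) and Mmp7 had log2 fold changes of 0.044 ± 0.21, 0.35 ± 0.25, 0.091 ± 0.22 and 0.18 ± 0.20 (SE), and none passed (edgeR adjusted p 0.908, 0.325, 0.797 and 0.531). The sign of Defa24 and Itln1 turned with library totals only, and that of Defa24, Itln1 and Mmp7 with the 18S term. The Defa genes are near-identical copies and the way their shared reads were counted is not stated in the sources used here. Defa2, Defa20, Defa23, Defa32, Defa33, Defa36 and Defa37, which were not tested, held at most 2 counts in each library. The study, by its own quantification with Salmon, lists Defa2, Defa20, Defa23, Defa32, Defa33 and Defa36 among its abundant defensins. The shares above hold almost no counts for these genes and may understate the defensin share. Reg3b and Reg3g, antibacterial lectins that microbes induce, rose by 1.40 ± 0.45 and 0.93 ± 0.33 log2 units (SE, edgeR adjusted p 0.0295 and 0.0461), with overlap between groups, and lost the call in 4 and 7 of the 8 fits without a library.

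Chromatin modifiers fell more often than they rose. Of 178 chromatin modifiers 7 rose and 34 fell (19.1% lower, against 11.5% of all genes), and of 135 splicing factors 14 rose and 25 fell. Cbx7, a Polycomb reader, stood at 33.5, 60.1, 43.4 and 36.7 CPM in the Milli-Q libraries and 17.8, 22.6, 22.7 and 16.3 CPM in the zinc libraries (log2 fold change -1.12 ± 0.20, SE, edgeR adjusted p 0.00151). Hdac7 and Hdac11, histone deacetylases, differed by -0.99 ± 0.17 and -0.76 ± 0.15 log2 units (SE), and Srrm2 and Rbm33, RNA-binding factors, by -0.88 ± 0.18 and -0.88 ± 0.15 (SE). With the GC correction chromatin modifiers gave 10 rises and 19 falls and splicing factors 12 rises and 28 falls, while without Milli-Q replicate 2 the falls were 20 and 8 and with the 18S term 6 and 1. The Wnt and Notch genes of the crypt niche gave 0 rises and 8 falls of 25 tested, among them the Notch ligand Dll1 (-0.69 ± 0.17, SE), the receptor Notch1 (-0.53 ± 0.15, SE) and the Wnt inhibitor Rnf43 (-0.56 ± 0.16, SE), but after the GC correction 1 rose and 1 fell, and without Milli-Q replicate 2 the falls were 2.

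Of the markers of neighbouring cells, those of stem cells were called lower above the share of all genes and the others near or below it. Stem cell markers gave 6 falls (40%) and 0 rises of 15, with Igfbp4, Rgmb and Rnf43 at -0.67, -0.58 and -0.56. There were 2 falls after the GC correction and 0 without Milli-Q replicate 2. The level of the whole stem list was 5037 to 7296 CPM on Milli-Q and 3714 to 6058 CPM on zinc water. Tuft cell markers gave 2 falls (14.3%, against 11.5% of all genes) and 0 rises of 14, and 1 fall after the GC correction, among them Sh2d6 (-1.28 ± 0.25, SE), and summed to 423 to 760 CPM and 200 to 569 CPM. The tuft median was -0.54, against -0.33 for the stem list, and 13 of the 14 tuft genes had a negative sign. Relative to the gene means, zinc replicates 1 and 3 were at -0.78 and -0.88 for the tuft list, and zinc replicates 2 and 4 at 0.37 and 0.28. Enterocyte markers gave 3 rises (9.68%, against 10.2% of all genes) and 0 falls of 31, with the same counts after the GC correction, among them the brush border hydrolases Sis (1.42 ± 0.38, SE) and Enpep (1.33 ± 0.38, SE), while their sum was 1105 to 1476 CPM and 1067 to 1522 CPM. Goblet cell markers gave 1 rise and 1 fall of 15 and enteroendocrine markers 1 rise and 0 falls of 20. Goblet cell markers summed to 14450 to 16840 CPM and 12500 to 17290 CPM, and stromal markers to at most 11.5 CPM, with 6 of 24 at 0. The part of these cells in the results was not tested.

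Among called genes of at least 5 CPM, several of the largest falls lay outside the gene groups above. Rgs11, a regulator of G protein signalling, stood at 10.1, 17.6, 12.1 and 6.42 CPM in the Milli-Q libraries and 2.11, 2.83, 3.23 and 0.784 CPM in the zinc libraries (log2 fold change -2.35 ± 0.44, SE, edgeR adjusted p 0.00188). St6galnac2, a sialyltransferase, stood at 14.6, 21.3, 19.4 and 14.8 CPM in the Milli-Q libraries and 3.16, 4.68, 5.73 and 3.33 CPM in the zinc libraries, with no overlap of groups (-2.05 ± 0.32, SE). Slc6a7, a proline transporter, and Shfl, an antiviral translation inhibitor, differed by -2.35 ± 0.48 and -2.34 ± 0.41 log2 units (SE). Dtx3, Kifc2, Grik5 and Col7a1, which encode a ubiquitin ligase, a kinesin, a glutamate receptor subunit and a collagen, differed by -2.28, -2.09, -2.04 and -1.93. All these calls held in every fit that leaves out a library. Several lie over other genes, as Rgs11 does over Fam234a and Arhgdig on the other strand and Grik5 over Zfp574, and whether counting used strand is not stated in the sources used here. Of the genes that fell 6.45% were long non-coding RNAs (97 of 1503), against 0.300% of those that rose (4 of 1335) and 5.25% of all tested genes.

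The zinc effect was compared with that in the other microbiome contexts. These zinc effects share no libraries with each other. Compared with germ-free mice, the effect differed for 27 of 13070 genes (0.207%) in edgeR's interaction test. Mthfd2, Nme1, Gars1 and Aars1 rose after antibiotics by 0.58, 0.61, 0.56 and 0.54 log2 units but differed by -0.45, -0.47, -0.29 and -0.52 in germ-free mice (adjusted p of the difference 0.0295, 0.0222, 0.0336 and 0.0233). Ndufaf4, an assembly factor of complex I, and Orc2, of the origin recognition complex, rose by 0.85 and 0.81 and differed by -0.40 and -0.28 in germ-free mice. In the other direction Ly75, an endocytic receptor, differed by -0.12 after antibiotics and by 2.45 in germ-free mice. This count reached 362 when germ-free Milli-Q replicate 1 was left out and 296 when germ-free zinc replicate 4 was. It was 0 without antibiotics libraries Milli-Q 4 or zinc 1, and also without the germ-free libraries Milli-Q 2, Milli-Q 3 or zinc 2, each left out alone. It was 3 with library totals only. Compared with SPF mice, 0 genes (0%) were called in edgeR (2418 at an unadjusted p under 0.05), with 260 in DESeq2 and 473 in limma-voom.

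**Figure D5:**
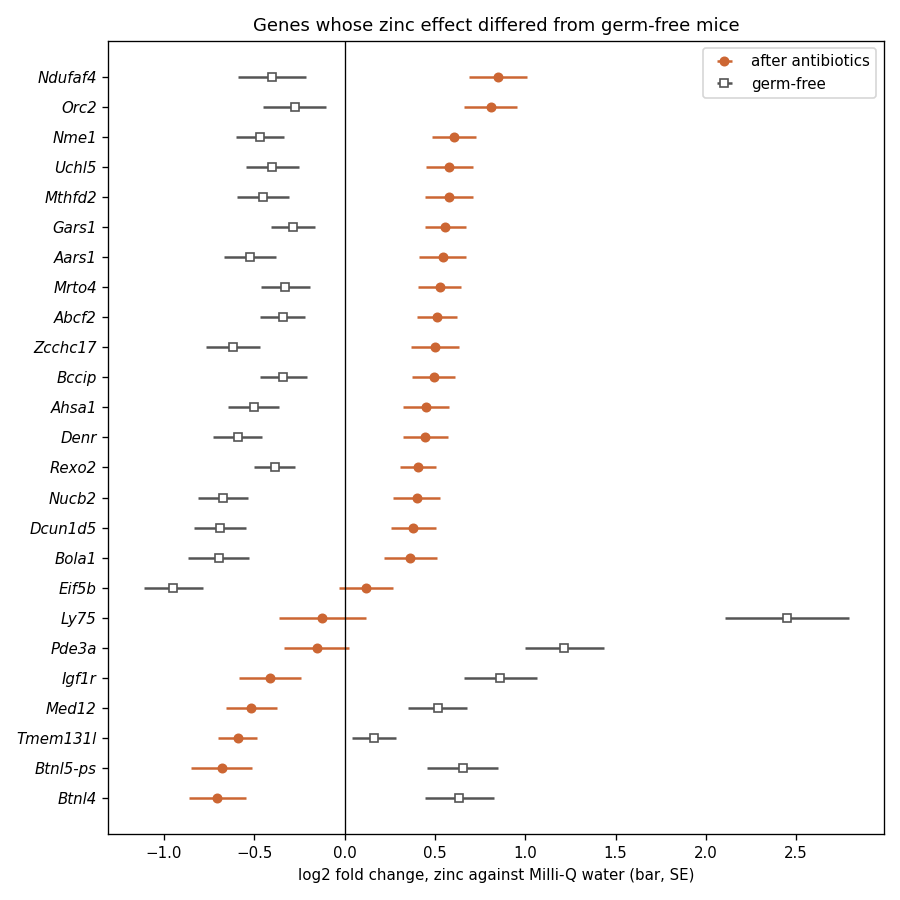
Log2 fold change on zinc against Milli-Q water after antibiotics (orange circles) and in germ-free mice (grey squares), with standard errors, for 25 of the 27 genes called in the interaction test. The genes above 0 after antibiotics were below 0 in germ-free mice, and those below 0 after antibiotics were above 0 in germ-free mice.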

How the data were processed

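Paneth cells of the small intestine were sorted by flow cytometry and their RNA was sequenced from stranded mRNA libraries. The authors deposited whole-number read counts per Ensembl gene for all libraries. FastQC 0.12.0, STAR 2.7.0a and DESeq2 are named in the submitters' processing notes. The counting tool and its use of strand are not given in the sources used here. Of 55414 gene identifiers 54749 matched GENCODE M39, and the 665 others held 0.0164% of counts.

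The counts were fitted with edgeR 4.0.16 (quasi-likelihood test, R 4.3.3) over all 21 libraries in 6 groups, with TMM scaling and filterByExpr, which left 13070 genes. P-values were adjusted by Benjamini-Hochberg over these genes, with a threshold of 0.05. The SE of a log2 fold change was its absolute value divided by the square root of the quasi-likelihood F statistic. The edgeR p-values set the group difference against the spread between libraries within groups, estimated over all 21 libraries and moderated across genes. A correction for transcript GC content and length used loess curves (span 0.5) per library. Alternatives were DESeq2 1.42.0, limma-voom 3.58.1, other scalings and filters, a replicate block, and each library left out. An 18S term (the log2 of the 18S share) and the removal of zinc replicates 3 and 4 were chosen after seeing the data. Shares were compared by exact two-sided permutation tests. The scripts were tested on simulated data.

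The members and the 72 gene lists were chosen with earlier results of these data known. Genes were named by a rule, which took 10 protein-coding genes per direction by size of change (called, at least 5 CPM, no overlap of groups, no clone or predicted name), up to 3 called genes per list and direction by p, the genes called in an interaction test, and Mt1, Mt2, Slc30a1, Slc39a4, Defa24, Lyz1, Itln1, Mmp7, Nos2, Nox1, Reg3b and Reg3g in any case. It also picked a gene that is left out here. Reads without molecular identifiers are not independent molecules.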

Additional observations from a re-analysis of the deposited data

Results flagged for a closer look

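In 14 of 268 groups of 4 libraries 1 library lay far from the other 3 by Dixon's criterion, where chance gives about 1 in 20. Among detoxification genes these were Gstm3 in zinc replicate 3 (52.9 CPM), Ces1f in Milli-Q replicate 2 (3.02 CPM) and Cyp4f13 in Milli-Q replicate 2 (27.0 CPM). Among defence genes they were Nos2 in zinc replicate 4 (2.02 CPM), Relb in Milli-Q replicate 2 (25.9 CPM) and Casp4 in zinc replicate 4 (10.1 CPM). The others were Itln1 in zinc replicate 1 (31899 CPM), Hdac7 in Milli-Q replicate 3 (13.1 CPM), Notch1 in zinc replicate 1 (25.6 CPM), Sh2d6 in Milli-Q replicate 1 (47.3 CPM), Uchl5 in zinc replicate 1 (28.6 CPM), Ahsa1 in zinc replicate 3 (76.7 CPM) and Rexo2 in Milli-Q replicate 1 (24.9 CPM). The mitochondrially encoded share of zinc replicate 1 (1.88%) lay below the other zinc libraries.

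The zinc effect after antibiotics differed from that in germ-free mice by edgeR's interaction test. As log2 differences (antibiotics minus germ-free), Ndufaf4 differed by 1.25, Orc2 by 1.09, Nme1 by 1.08, Mthfd2 by 1.03, Gars1 by 0.84 and Aars1 by 1.07. Genes of ribosome assembly and translation, Mrto4, Abcf2, Denr and Eif5b, differed by 0.86, 0.86, 1.04 and 1.07. Uchl5, Zcchc17, Bccip, Ahsa1, Rexo2, Nucb2, Dcun1d5 and Bola1 differed by 0.98, 1.12, 0.83, 0.95, 0.79, 1.07, 1.07 and 1.06. On the other side Ly75, Pde3a, Igf1r, Med12 and Tmem131l differed by -2.57, -1.37, -1.27, -1.03 and -0.75, and the butyrophilin-like Btnl4 and Btnl5-ps, relatives in 1 gene family whose reads may be shared, by -1.34 and -1.33.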

How the results depend on the processing

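Genes called on zinc against Milli-Q water numbered 2838 (1335 higher, 1503 lower). They were 1445 (150 higher) with library totals only, 478 (203 and 275) with the 18S term, 853 (337 and 516) without zinc replicates 3 and 4, and 946 (359 and 587) at a threshold of 0.01. The GC correction left 934 lower. Leaving out 1 library gave 1317 to 2680, 540 to 1224 higher and 777 to 1486 lower. The difference of the zinc effect from SPF gave 0 calls, against 260 in DESeq2, 675 with no filter on low counts and 473 in limma-voom, and 0 to 21 without a library. That from germ-free gave 27, against 323 in DESeq2, 547 with a replicate block, 98 with the GC correction, 323 with no filter, 3 with library totals and 767 in limma-voom, and 0 to 362 without a library. The cause was not tested. The difference in defensin share was -3.06 to -0.473 percentage points and that in mitochondrial share 0.833 to 1.46 without a library.

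The replicate block gave 2587 calls (1172 higher, 1415 lower). The labels do not say whether the replicate numbers pair the samples. Same-numbered libraries correlated at -0.0386, 0.00488, 0.0398 and 0.229 in their deviations, and 2 of 8 correlated best with their own number. These few correlations cannot decide it. The direction of Defa24 turned with library totals (-0.11), the 18S term (-0.092) and without Milli-Q replicate 1 (-0.069) or zinc replicate 1 (-0.012), and that of Itln1 under the same 4 settings (-0.071, -0.035, -0.0076 and -0.11). Mmp7 turned with the 18S term (-0.041), Eif5b with library totals (-0.036) and Ly75 without Milli-Q replicate 4 (0.088). Without 1 library Defa24 ran from -0.069 to 0.14, Itln1 from -0.11 to 0.18 and Ly75 from -0.24 to 0.088. Of 131 named genes 129 kept direction and side of the threshold in DESeq2, 107 with the GC correction, 86 with library totals and 71 with the 18S term.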

Other observations

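Nuclear pore and transport genes gave 23 rises and 1 fall of 57 tested, with a median of 0.35 against 0.0072 for all genes (23 and 0 after the GC correction). Ribosome biogenesis genes gave 16 rises and 0 falls of 75 (21 and 0 after it), and translation initiation and elongation factors 20 rises and 1 fall of 68 (22 and 0 after it). Actin and myosin genes gave 18 rises and 3 falls of 57 (22 and 0 after it). With library totals only the rises of these lists, in the order given, were 3, 1, 3 and 0. Immediate early genes, which cells switch on within minutes of a stimulus, gave 0 rises and 6 falls of 30 (2 falls after the GC correction), and genes of MAPK, PI3K and mTOR signalling 6 rises and 20 falls of 86 (8 and 7 after it). Lists that stayed near the background of 10.2% higher and 11.5% lower included ubiquitin enzymes, with 28 rises and 35 falls of 277, and microtubule and kinesin genes, with 14 rises and 12 falls of 134.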
